A study of Mus musculus with 16 samples.

Results

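Antioxidant and glutathione enzyme genes were examined as a set of 38 genes, chosen by gene name from the 49585 genes of an RPKM table (a read density corrected for gene length and sequencing depth). All 38 were found. They fell into 9 enzyme families: 3 superoxide dismutases, catalase, 5 glutathione peroxidases, 7 peroxiredoxins and sulfiredoxin, 5 thioredoxins with their reductases and glutaredoxin, 4 genes of glutathione synthesis and reduction, 8 glutathione transferases, 3 heme oxygenase and quinone reductase genes, and 2 regulators. The RNA came from single inner and outer hair cells (IHCs and OHCs), the sensory cells of the cochlea, drawn one by one by pipette from CBA mice (CBA/J in the study's methods) of either sex, about 1000 cells a sample. There were 4 libraries in each of 4 groups: OHCs at 26 months (26m OHC), OHCs at 9 months (9m OHC), IHCs at 26 months (26m IHC) and IHCs at 9 months (9m IHC). No group carried a genetic change or was treated, and the cells of a sample were pooled over animals.

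Cells make superoxide mainly as a by-product of respiration. Superoxide dismutases turn it into hydrogen peroxide, which catalase, the glutathione peroxidases and the peroxiredoxins reduce to water. Glutathione and thioredoxin supply the electrons for the glutathione peroxidases and the peroxiredoxins. The reductases of glutathione and thioredoxin recharge them with NADPH, and glutathione transferases couple glutathione to reactive molecules. The transcription factor NRF2, the product of Nfe2l2, is held back by KEAP1 and switches on many of these genes at antioxidant response elements. Cochlear hair cells are rich in mitochondria, and oxidative damage is a widely studied feature of hearing loss with age, noise and ototoxic drugs.

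The labels and the cell markers did not match in every group, which bears on each comparison below. Slc26a5 (prestin, the OHC motor protein) had 1.79 and 1.90 RPKM in libraries labelled 26m OHC, 0.17 and 0.17 RPKM in 9m OHC, 819 and 813 RPKM in 26m IHC and 1.03 and 1.11 RPKM in 9m IHC. Marker sums are given as the range over 2 averages of a group, each of 2 libraries. The summed RPKM of 10 OHC markers was 1207 to 1216 in 26m OHC, 112 to 114 in 9m OHC, 15730 to 15890 in 26m IHC and 52.6 to 55.1 in 9m IHC. Most of it was Ocm, which averaged 1151, 97.0, 12920 and 32.9 RPKM in that order. Each of the 10 was highest in 26m IHC. Slc26a5, Chrna9, Tectb, Lbh and C1ql1 averaged higher in 9m IHC than in 9m OHC, the others lower, and Tectb was lowest in 26m OHC at 0.11 RPKM. The sum of 6 IHC markers, Otof and Slc17a8 among them, was 272 to 276, 268 to 270, 27.5 to 28.0 and 550 to 566 RPKM in the same order of groups. The genes of this list did not move alike. Slc17a8 averaged 42.2, 90.5, 2.04 and 44.4 RPKM in that order. Nefh averaged 142.5, 13.5, 1.29 and 19.0 RPKM, and the others were highest in 9m IHC. Groups are therefore named below as the libraries were labelled. In the comparisons below, OHC, IHC, cell type and age mean these labels. If the labels 26m IHC and 9m OHC stood for each other, which is a reading made with the values in view, the differences given as OHC over IHC would be differences between ages within a cell type, and those given as 26 over 9 months, with every rise or fall reported for them, would be differences between cell types at 1 age. Markers of other cells also moved with the groups. Macrophage genes (12) summed to 1114 to 1131 RPKM in 26m OHC, 0.21 to 0.31 in 9m OHC, where 8 of them were listed at 0, 51.8 to 53.7 in 26m IHC and 3.10 to 3.12 in 9m IHC. Red cell genes (6) summed to 17.9 to 18.6, 12.8 to 13.9, 5941 to 6148 and 401 to 406 RPKM. Eosinophil and neutrophil genes (8) reached 429 to 438 RPKM in 26m IHC and at most 4.23 RPKM elsewhere, and neuronal genes (8) were highest in 26m OHC at 729 to 742 RPKM. Supporting cell genes (10) summed highest in 9m IHC at 1319 to 1321 RPKM, although Fgfr3, Otog and Hes5 were each highest in 26m IHC. Genes of fibrocytes and stria (10) summed highest in 26m OHC at 648 to 653 RPKM, where Coch, Otos, Otor and Dct had their highest levels. Of the others, Col1a1 and Kcne1 were highest in 9m OHC, Col1a2, Col3a1 and Atp1b2 in 26m IHC, and Kcnq1 in 9m IHC. Schwann cell genes (6) stayed at 8.30 RPKM or less, and 7 general hair cell genes summed to 517 to 834 RPKM over all groups. The genes of this hair cell list did not move alike either. Pvalb averaged 394 RPKM in 26m OHC, 506 in 9m OHC, 168 in 26m IHC and 341 in 9m IHC. Tmc1 averaged 26.3, 32.8, 247 and 82.5 RPKM in that order. Myo7a was highest in 9m IHC, and Pou4f3, Gfi1, Cdh23 and Espn were highest in 26m IHC. In RNA from pooled cells, fewer cells of a type and less RNA per cell cannot be told apart.

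Mapped reads per library, recovered from the deposited values, ranged from 19990435 to 21226800 in 26m OHC, 19666190 to 21030345 in 9m OHC, 23161311 to 25617032 in 26m IHC and 28826644 to 31243721 in 9m IHC. Libraries 1 and 2 of a group, and libraries 3 and 4, differed by no more than the sampling noise, so the mean of each pair was used as 1 replicate, and every group has n = 2. The values given below as pairs are these averaged replicates, and p-values measure only the spread between them, which may be technical. Fold changes are on the log2(RPKM + 0.1) scale, with the standard error (SE) and the adjusted p of limma, and a gene was called when its adjusted p was 0.1 or less and its log2 fold change 1 or more in either direction. The wording rose or fell is kept for called genes.

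Before the levels, the promoters of members are shown because some members hold a match to the element through which NRF2 acts. RefSeq (GRCm38.p6) gave a promoter from 250 bases before to 50 bases after a start site for 32 of the 38 members. The core of the antioxidant response element, TGACNNNGC, searched on both strands, was found in 8 of these 32 genes (25%), against 14.0% of all 27025 genes with a promoter. The 8 were Nfe2l2, Srxn1, Gstm5, Gclm, Prdx1, Mgst1, Txnrd1 and Sod1. The stretches around it in 5 of them, chosen for lying wholly upstream of the gene, are printed along the gene, with the matched core in capitals.
Sod1 (chr16:90220686-90220734, + strand): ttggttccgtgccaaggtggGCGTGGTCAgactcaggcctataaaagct
Txnrd1 (chr10:82859094-82859142, + strand): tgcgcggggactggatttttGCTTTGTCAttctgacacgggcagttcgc
Gclm (chr3:122245403-122245451, + strand): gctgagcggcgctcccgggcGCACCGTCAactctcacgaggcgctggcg
Prdx1 (chr4:116685446-116685494, + strand): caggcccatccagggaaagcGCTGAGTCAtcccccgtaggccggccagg
Nfe2l2 (chr2:75704875-75704913, - strand): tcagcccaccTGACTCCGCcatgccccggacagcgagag
The match runs along the gene in Nfe2l2 and on the opposite strand in the other 4. In Prdx1 it overlaps the AP-1 motif TGAGTCA, which none of the other 4 stretches holds in either reading. A match describes these letters and is neither a site in use nor a cause of a level, and the levels of the 5 genes did not all move alike. Txnrd1 and Nfe2l2 were highest in libraries labelled 26m IHC, Gclm in 9m IHC, Sod1 in 9m OHC and Prdx1 in 26m OHC.

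Summed over the 38 genes, RPKM came to 4123 and 4037 in libraries labelled 26m OHC, 4837 and 4741 in 9m OHC, 1743 and 1736 in 26m IHC and 1788 and 1767 in 9m IHC. Most of the gap between OHC and IHC libraries lay in Sod1. It made up 35.9% and 35.9% of the sum in 26m OHC, 39.9% and 40% in 9m OHC, 4.3% and 4.0% in 26m IHC and 5.4% and 5.4% in 9m IHC. Without Sod1 the sums were 2642 and 2587, 2905 and 2843, 1667 and 1666, and 1691 and 1671 RPKM in the same order of groups. The number of members averaging over 0.1 RPKM was 37 in 26m OHC, 34 in 9m OHC and 38 in each IHC group. By group mean, 16 members were highest in 26m OHC, 9 in 9m OHC, 6 in 26m IHC and 7 in 9m IHC, and 15 were lowest in 26m IHC. This was not counted for all genes, so nothing particular to members is read from it. The median log2 fold change of all genes was itself shifted between groups, for example 0.45 in 26m OHC over 9m OHC and -0.93 in 9m OHC over 9m IHC.

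**Figure D1:**
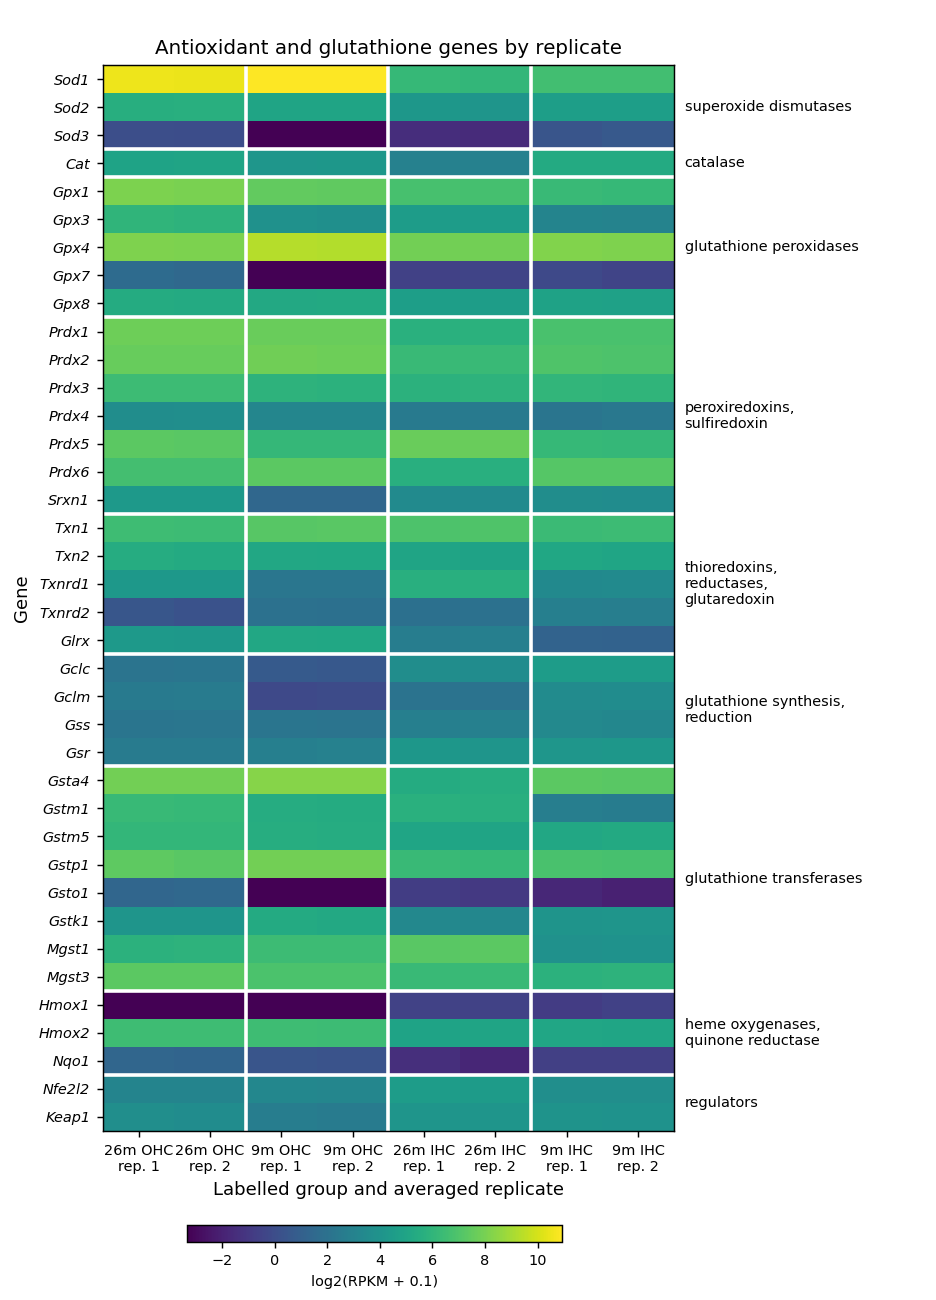
Level of each of the 38 genes (rows, by enzyme family) in the 2 averaged replicates of each labelled group (columns), as log2(RPKM + 0.1) from dark (low) to yellow (high). Replicates of a group look alike, Sod1 is bright in the 4 OHC columns, and the darkest cells are genes listed at 0: Sod3, Gpx7 and Gsto1 in 9m OHC and Hmox1 in both OHC groups.

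Between ages, Gpx3, Prdx5 and Txnrd1 rose in libraries of both cell types, and most other members passed in 1 cell type or in none. In libraries labelled OHC, 12 of 37 members tested passed (32.4%), 9 higher and 3 lower at 26 months, where 49.6% of all 14843 genes tested passed (35.6% higher and 14% lower). Their median log2 fold change was 0.45, and that of all genes 0.45. In libraries labelled IHC, 12 of 38 passed (31.6%), 6 higher and 6 lower, with 32.7% of all genes passing (14.1% higher and 18.6% lower), and the medians were -0.18 for members and -0.09 for all genes. Hmox1 went untested in OHCs because it was listed at 0 in both groups.

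Between cell types, most of the called members were higher in OHC libraries at 26 months, and about as many were higher as lower at 9 months. At 26 months 26 of 38 passed (68.4%), 19 higher and 7 lower in OHC than in IHC libraries, where 29% of all genes were called higher and 34.4% lower (63.5% in either direction). The median log2 fold change was 0.91 for members and -0.20 for all genes. At 9 months 23 of 38 passed (60.5%, against 65.8% of all genes), 11 higher and 12 lower, where 17.3% of all genes were called higher and 48.5% lower. Here the median of all genes was itself shifted, to -0.93, while that of members was 0.29, and 26 of the 38 members lay above the median of all genes. With median ratio scaling the shift of all genes shrank to -0.20 and the members split into 19 higher and 7 lower, and with quantile normalization into 11 higher and 6 lower. The lower calls of Cat, Gsr, Gss, Keap1 and Txnrd1 at 9 months were lost under either scaling.

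**Figure D2:**
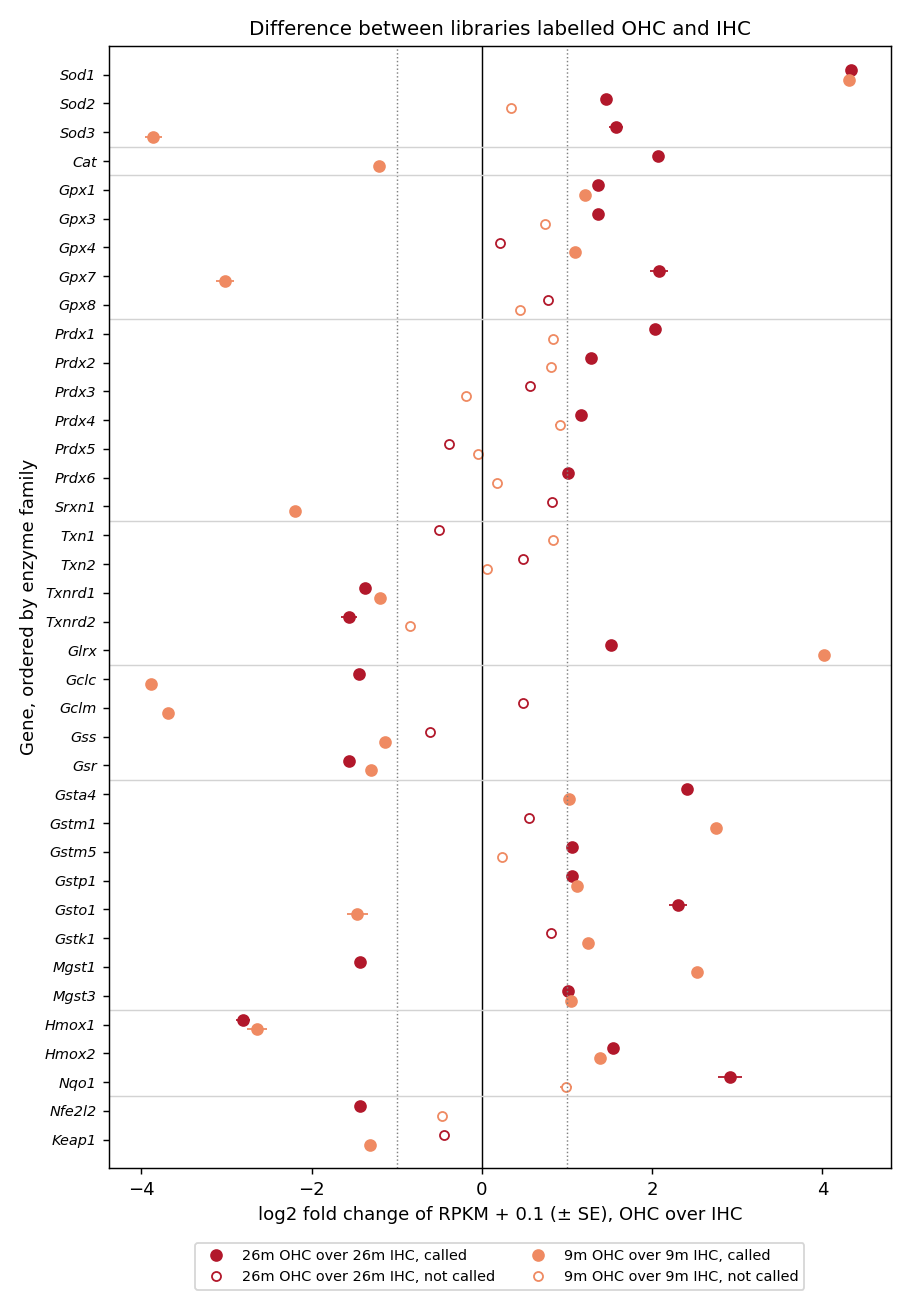
Log2 fold change of RPKM + 0.1 (± SE of the fit) of each gene in OHC over IHC libraries at 26 months (dark red) and 9 months (orange), with filled circles for called genes and dotted lines at 1 and -1. Sod1 stands farthest right at both ages (4.34 and 4.31), and Sod3, Cat, Gpx7, Gsto1 and Mgst1 have filled circles on opposite sides of 0.

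Superoxide dismutases. Sod1 encodes the cytosolic copper-zinc enzyme, a major defence in hair cells, and lies at chr16:90220742-90226322 (+ strand, GRCm38). It had 1480 and 1450 RPKM in libraries labelled 26m OHC, 1932 and 1899 RPKM in 9m OHC, 75.5 and 69.5 RPKM in 26m IHC and 96.9 and 96.2 RPKM in 9m IHC. Both OHC groups lay far above both IHC groups, with no overlap. The difference was 20.2-fold at 26 months (log2 fold change 4.34, SE 0.04, adjusted p = 3.63e-07) and 19.8-fold at 9 months (4.31, SE 0.02, adjusted p = 5.02e-07), while the age differences of -0.39 in OHCs and -0.41 in IHCs were not called. Among genes at 0.1 RPKM or more Sod1 ranked 23rd in 26m OHC and 24th in 9m OHC, but 702nd in 26m IHC and 514th in 9m IHC. The 26m IHC libraries, with the highest OHC marker levels, had the lowest Sod1 level.

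Sod2, the manganese enzyme of mitochondria, averaged 48.8 ± 1.23 RPKM in 26m OHC, 31.8 ± 0.01 in 9m OHC, 17.7 ± 0.66 in 26m IHC and 25 ± 0.35 in 9m IHC (SD, n = 2). It was called between cell types at 26 months (1.46, SE 0.04, adjusted p = 2.53e-06), and at 9 months with median ratio scaling alone (1.07). Sod3, the secreted enzyme of the matrix around cells, was low, with 0.98 and 0.92 RPKM in 26m OHC, 0 and 0 in 9m OHC, 0.26 and 0.24 in 26m IHC and 1.25 and 1.46 in 9m IHC. It was called in all 4 comparisons. Taking 3 reads per library as the limit of a count of 0, Sod3 was at least 23.2-fold higher in 26m OHC than in 9m OHC and at least 33.2-fold lower in 9m OHC than in 9m IHC. It fell in 26m IHC against 9m IHC (-2.04, SE 0.10, adjusted p = 2.34e-05). The reads behind it numbered 64 to 81 per library in 26m OHC, 17 to 32 in 26m IHC and 140 to 176 in 9m IHC.

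Catalase. Cat, which splits hydrogen peroxide in peroxisomes, had 30.9 and 31.8 RPKM in 26m OHC, 17.8 and 18.1 RPKM in 9m OHC, 7.40 and 7.42 RPKM in 26m IHC and 41.5 and 41.8 RPKM in 9m IHC. The 4 groups were fully separated, with 26m IHC lowest. Cat fell 5.62-fold in 26m IHC against 9m IHC (-2.48, SE 0.03, adjusted p = 1.71e-07) and was not called in OHCs, where it was 1.75-fold higher at 26 months (0.80). Its contrast between cell types turned with age: higher in 26m OHC than in 26m IHC (2.07, adjusted p = 5.78e-07), lower in 9m OHC than in 9m IHC (-1.21, adjusted p = 1.26e-06), the second being -0.28 from the median of all genes. The red cell sum differed between the same groups and was highest in 26m IHC, and its part in the Cat level was not tested.

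Glutathione peroxidases. Gpx4, which reduces lipid peroxides in membranes, was the most abundant of these members. Gpx2, which is not a member and is given further below, was higher in each group. Gpx4 had 283 and 276 RPKM in 26m OHC, 632 and 608 RPKM in 9m OHC, 241 and 240 RPKM in 26m IHC and 294 and 289 RPKM in 9m IHC. It stood apart in 9m OHC. It fell 2.22-fold in 26m OHC against 9m OHC (-1.15, SE 0.03, adjusted p = 5.53e-06) and was higher in 9m OHC than in 9m IHC (1.09, adjusted p = 2.21e-06). With quantile normalization neither call held (-0.96 and 0.66). Of the 75-base windows along its transcript 54.1% also occur in other genes, mainly the pseudogene Gpx4-ps2, so its level is uncertain.

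Gpx1, the main cytosolic peroxidase, had 280 and 262 RPKM in 26m OHC, 183 and 174 RPKM in 9m OHC, 108 and 104 RPKM in 26m IHC and 79.0 and 74.9 RPKM in 9m IHC. It was higher in OHC libraries at 26 months (1.36, SE 0.04, adjusted p = 4.59e-06) and at 9 months (1.21, SE 0.04, adjusted p = 5.31e-06). Gpx3, which is secreted, had 62.5 and 59.6 RPKM in 26m OHC, 14.5 and 13.6 RPKM in 9m OHC, 23.7 and 23.7 RPKM in 26m IHC and 8.62 and 8.03 RPKM in 9m IHC. It rose at 26 months in libraries of both cell types, 4.35-fold in OHCs (2.11, SE 0.04, adjusted p = 3.76e-06) and 2.84-fold in IHCs (1.498, SE 0.04, adjusted p = 2.75e-06). The sum of the fibrocyte and stria markers was also higher in the 26-month libraries of each cell type, and its part in this was not tested. Some genes of that list went the other way. Col1a1 and Kcne1 were lower in 26m OHC than in 9m OHC, and Col1a1, Kcnq1 and Dct were lower in 26m IHC than in 9m IHC. Gpx7, of the endoplasmic reticulum, had 3.11 and 2.68 RPKM in 26m OHC, 0 and 0 in 9m OHC, 0.56 and 0.65 in 26m IHC and 0.77 and 0.64 in 9m IHC. It was at least 24.5-fold higher in 26m OHC than in 9m OHC and at least 6.01-fold lower in 9m OHC than in 9m IHC, on 67 to 91 reads per library in 26m OHC and 24 to 33 in 9m IHC. Gpx8, the other peroxidase of that compartment, averaged 42.7 ± 0.91 RPKM in 26m OHC, 39.3 ± 0.95 in 9m OHC, 24.9 ± 0.57 in 26m IHC and 28.7 ± 0.83 in 9m IHC, and passed in no comparison, although it did so in OHC over IHC libraries at 9 months with median ratio scaling (1.17) and at 26 months with quantile normalization (1.09).

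**Figure D3:**
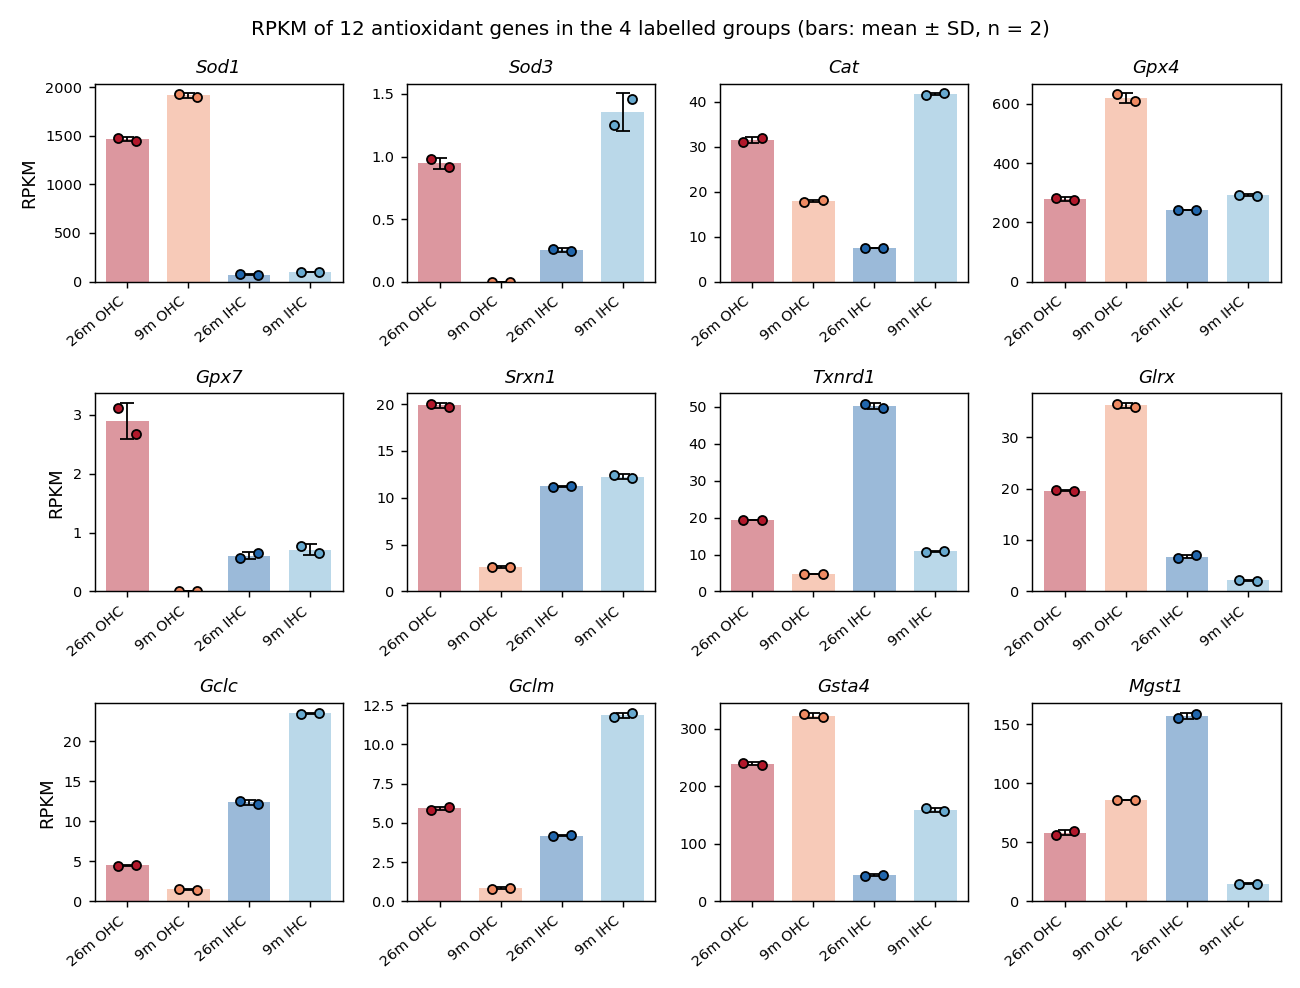
RPKM of 12 genes (1 panel each, linear axes from 0) in the 4 labelled groups, with bars for the mean, whiskers for the SD over 2 averaged replicates and points for the replicates. Sod1 and Glrx are high in OHC libraries, Gclc and Gclm lowest in 9m OHC, and Txnrd1 and Mgst1 highest in 26m IHC.

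Peroxiredoxins and sulfiredoxin. Peroxiredoxins are abundant thiol peroxidases that thioredoxin recharges. Their summed RPKM with Srxn1 was 790 and 788 in 26m OHC, 730 and 722 in 9m OHC, 463 and 466 in 26m IHC and 541 and 535 in 9m IHC. At 26 months 4 of the 7 genes were higher in OHC than in IHC libraries and none lower (29% and 34.4% of all genes). Prdx2, the most abundant by the mean of the 4 groups, had 196 and 192 RPKM in 26m OHC, 225 and 218 RPKM in 9m OHC, 80.0 and 79.6 RPKM in 26m IHC and 128 and 125 RPKM in 9m IHC. It was lowest in 26m IHC, the group with the highest red cell sum, whose part in its level was not tested. Of the windows along Prdx2 19.4% occur in other genes, Junb and Rnaseh2a among them. Prdx2 was called at 26 months between cell types (1.28, SE 0.02, adjusted p = 8.34e-07), as were Prdx1, Prdx4 and Prdx6.

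Prdx1, a cytosolic member and NRF2 target, had 215 and 219 RPKM in 26m OHC, 202 and 203 RPKM in 9m OHC, 52.1 and 54.0 RPKM in 26m IHC and 112 and 116 RPKM in 9m IHC. Prdx6, which also reduces phospholipid peroxides, had 101 and 100.4 RPKM in 26m OHC, 162 and 161 RPKM in 9m OHC, 50.3 and 49.8 RPKM in 26m IHC and 144 and 141 RPKM in 9m IHC. Both were lowest in 26m IHC. They fell there against 9m IHC, Prdx1 by 1.10 (SE 0.03, adjusted p = 2.70e-06) and Prdx6 by 1.51 on the log2 scale (SE 0.02, adjusted p = 4.49e-07), the call of Prdx1 being lost with median ratio scaling (-0.90). Prdx5, found in mitochondria and other compartments, moved the other way, rising at 26 months in OHCs (1.15, SE 0.02, adjusted p = 3.34e-06) and in IHCs (1.49, SE 0.03, adjusted p = 1.07e-06). It averaged 158 ± 2.57 RPKM in 26m OHC, 71.0 ± 0.61 in 9m OHC, 206 ± 0.26 in 26m IHC and 73.5 ± 2.53 in 9m IHC, and the OHC call was lost with median ratio scaling (0.74). Of the windows along Prdx5 12.7% also occur in Trmt112. Prdx3, the mitochondrial member, averaged 57.6 to 86.6 RPKM over the groups and passed nowhere.

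Srxn1 encodes sulfiredoxin, which revives over-oxidized peroxiredoxins. It had 20.1 and 19.7 RPKM in 26m OHC, 2.56 and 2.65 RPKM in 9m OHC, 11.2 and 11.3 RPKM in 26m IHC and 12.4 and 12.1 RPKM in 9m IHC. The 9m OHC libraries were the low ones. Srxn1 rose 7.63-fold in 26m OHC against 9m OHC (2.88, SE 0.04, adjusted p = 2.04e-06) and was 4.70-fold lower in 9m OHC than in 9m IHC (-2.19, SE 0.04, adjusted p = 9.42e-07).

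Thioredoxins, their reductases and glutaredoxin. Txn1, cytosolic thioredoxin, had 88.9 and 86.3 RPKM in 26m OHC, 151 and 153 RPKM in 9m OHC, 122 and 126 RPKM in 26m IHC and 83.9 and 86.1 RPKM in 9m IHC. The groups 26m OHC and 9m IHC lay side by side, and no comparison passed, with log2 fold changes between -0.80 and 0.84. With median ratio scaling Txn1 was called lower in 26m OHC than in 9m OHC (-1.21) and higher in 9m OHC than in 9m IHC (1.57). Txn2, its mitochondrial partner, averaged 30.7 to 43.0 RPKM and also passed nowhere. Txnrd1, which reduces Txn1, had 19.4 and 19.2 RPKM in 26m OHC, 4.71 and 4.66 RPKM in 9m OHC, 50.8 and 49.6 RPKM in 26m IHC and 10.72 and 10.95 RPKM in 9m IHC. It passed in all 4 comparisons. It rose 4.12-fold in 26m OHC against 9m OHC (2.02, SE 0.03, adjusted p = 2.26e-06) and 4.63-fold in 26m IHC against 9m IHC (2.20, SE 0.03, adjusted p = 2.86e-07). It was lower in OHC libraries at 26 months (-1.38, adjusted p = 1.04e-06) and at 9 months (-1.19, adjusted p = 2.92e-06), the last being -0.26 from the median of all genes.

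Txnrd2, the mitochondrial reductase, had 1.32 and 1.10 RPKM in 26m OHC, 3.82 and 3.67 RPKM in 9m OHC, 3.68 and 3.81 RPKM in 26m IHC and 6.86 and 6.76 RPKM in 9m IHC. It was lowest in 26m OHC, where it fell 3.10-fold against 9m OHC (-1.56, SE 0.09, adjusted p = 8.57e-05) and was lower than in 26m IHC by the same amount (-1.56, SE 0.09, adjusted p = 4.67e-05), on 94 to 127 reads per library. Glrx, cytosolic glutaredoxin, which removes glutathione from protein thiols, had 19.6 and 19.6 RPKM in 26m OHC, 36.5 and 35.9 RPKM in 9m OHC, 6.566 and 7.002 RPKM in 26m IHC and 2.18 and 2.10 RPKM in 9m IHC. Among members above 0 in every group it came next to Sod1 in its contrast between cell types at 9 months, 16.9-fold higher in OHC than in IHC libraries (4.02, SE 0.03, adjusted p = 5.02e-07). At 26 months the contrast was 2.89-fold (1.52, SE 0.04, adjusted p = 2.89e-06). Glrx rose in 26m IHC against 9m IHC (1.62, SE 0.05, adjusted p = 4.41e-06), and in OHCs its log2 fold change was -0.88, not called as scaled here but called lower with median ratio scaling (-1.29) and quantile normalization (-1.03), which would make its age calls opposite.

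Glutathione synthesis and reduction. Glutathione is built from glutamate, cysteine and glycine. Gclc and Gclm encode the catalytic and the modifier subunit of the rate-limiting ligase, Gss the synthase and Gsr the reductase. All 4 were lower in 9m OHC than in 9m IHC libraries, with a median log2 fold change of -2.49 (48.5% of all genes were called lower there and their median was -0.93), and summed to 20.8 and 21.2 RPKM in 26m OHC, 14.0 and 14.2 in 9m OHC, 42.0 and 40.7 in 26m IHC and 63.5 and 63.4 in 9m IHC. The calls of the ligase genes held under each scaling, whereas those of Gss (-1.14) and Gsr (-1.31) did not. Gclc had 4.42 and 4.55 RPKM in 26m OHC, 1.55 and 1.44 RPKM in 9m OHC, 12.6 and 12.2 RPKM in 26m IHC and 23.5 and 23.6 RPKM in 9m IHC. No 2 groups overlapped. It was 15.7-fold lower in 9m OHC than in 9m IHC (-3.89, SE 0.04, adjusted p = 5.25e-07), on 107 to 128 reads per library in 9m OHC and 2535 to 2770 in 9m IHC, and 2.76-fold lower in 26m OHC than in 26m IHC (-1.44, SE 0.04, adjusted p = 2.64e-06).

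With age Gclc rose in OHC libraries (1.52, SE 0.05, adjusted p = 1.54e-05), a call lost with quantile normalization (0.90), and was lower but not called in IHC libraries (-0.92). Gclm had 5.84 and 5.99 RPKM in 26m OHC, 0.79 and 0.87 RPKM in 9m OHC, 4.16 and 4.22 RPKM in 26m IHC and 11.72 and 11.96 RPKM in 9m IHC. It rose 7.12-fold in 26m OHC against 9m OHC (2.69, SE 0.06, adjusted p = 4.78e-06) and fell 2.83-fold in 26m IHC against 9m IHC (-1.48, SE 0.03, adjusted p = 1.55e-06). At 9 months it was 14.2-fold lower in OHC libraries (-3.68, SE 0.06, adjusted p = 7.58e-07), and at 26 months it did not pass (0.49). Gsr had 6.02 and 5.88 RPKM in 26m OHC, 7.05 and 7.50 RPKM in 9m OHC, 18.2 and 17.1 RPKM in 26m IHC and 18.1 and 18.2 RPKM in 9m IHC. It separated the OHC from the IHC libraries at both ages (-1.55 at 26 months, SE 0.04, adjusted p = 2.92e-06) and passed in neither comparison between ages. Gss averaged 4.62 ± 0.15 RPKM in 26m OHC, 4.47 ± 0.12 in 9m OHC, 7.11 ± 0.11 in 26m IHC and 10 ± 0.43 in 9m IHC.

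Glutathione transferases. These enzymes summed to 791 and 774 RPKM in 26m OHC, 905 and 884 in 9m OHC, 453 and 454 in 26m IHC and 404 and 401 in 9m IHC. Of the 8, 5 were higher and 1 lower in OHC than in IHC libraries at 26 months (29% and 34.4% of all genes), and 6 were higher and 1 lower at 9 months (17.3% and 48.5% of all genes), 3 of the 6 by 1.02 to 1.11 on the log2 scale. Gsta4, which clears the lipid peroxidation product hydroxynonenal, had 241 and 237 RPKM in 26m OHC, 326 and 319 RPKM in 9m OHC, 43.8 and 46.4 RPKM in 26m IHC and 162 and 157 RPKM in 9m IHC. It was highest in OHC libraries at each age. The contrast was 5.30-fold at 26 months (2.40, SE 0.04, adjusted p = 5.78e-07) and 2.03-fold at 9 months (1.02, SE 0.03, adjusted p = 2.41e-06), and Gsta4 fell 3.53-fold in 26m IHC against 9m IHC (-1.82, SE 0.04, adjusted p = 1.04e-06). The 9-month contrast lay at the fold threshold and was lost with quantile normalization (0.64) or without 9m IHC replicate 2 (0.996).

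Mgst1, a membrane-bound transferase of the endoplasmic reticulum and mitochondria, was highest where Gsta4 was lowest. It had 56.6 and 59.9 RPKM in 26m OHC, 85.8 and 85.6 RPKM in 9m OHC, 155 and 159 RPKM in 26m IHC and 14.5 and 15.1 RPKM in 9m IHC. It rose 10.6-fold in 26m IHC against 9m IHC (3.40, SE 0.03, adjusted p = 1.24e-07), the largest rise with age among members above 0 in all groups, and had a log2 fold change of -0.56 in OHCs. Gstm1, a cytosolic transferase, had 76.3 and 74.5 RPKM in 26m OHC, 45.8 and 43.9 RPKM in 9m OHC, 52.1 and 50.8 RPKM in 26m IHC and 6.83 and 6.32 RPKM in 9m IHC. The 9m IHC libraries were low for both genes. Gstm1 rose 7.83-fold in 26m IHC against 9m IHC (2.95, SE 0.04, adjusted p = 4.28e-07) and was 6.81-fold higher in 9m OHC than in 9m IHC (2.75, SE 0.05, adjusted p = 9.37e-07). Of its windows 16.3% occur in other genes.

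Gsto1, a transferase with dehydroascorbate reductase activity, had 2.55 and 2.68 RPKM in 26m OHC, was listed at 0 in the 4 libraries of 9m OHC, and had 0.50 and 0.41 RPKM in 26m IHC and 0.20 and 0.15 RPKM in 9m IHC. It was called in 26m OHC over 26m IHC (2.30, SE 0.10, adjusted p = 1.52e-05). In 26m IHC over 9m IHC it just missed the fold threshold and passed it without 26m IHC replicate 2 (1.12) or 9m IHC replicate 1 (1.14), and with median ratio scaling (1.09) or quantile normalization (1.15). Gstp1 (160 ± 9.70 RPKM in 26m OHC, 238 ± 3.02 in 9m OHC, 77.0 ± 3.27 in 26m IHC, 110 ± 1.96 in 9m IHC) and Mgst3 (161 ± 1.28, 118 ± 1.55, 80.2 ± 1.73 and 56.9 ± 1.86 RPKM in that order) were called higher in OHC libraries at both ages, by 1.01 to 1.11. At 26 months both calls were lost without 26m OHC replicate 1 (0.999 for Mgst3 and 0.995 for Gstp1), and that of Mgst3 without 26m IHC replicate 1 (0.985). At 9 months the call of Gstp1 was lost with quantile normalization (0.88). Gstp1 shares 53.3% of its windows with other genes, mainly Gstp2. Gstk1, of mitochondria and peroxisomes, fell in 26m OHC against 9m OHC (-1.20, SE 0.04, adjusted p = 1.79e-05) and was higher in 9m OHC than in 9m IHC (1.25, adjusted p = 7.01e-06). Gstm5 averaged 32.7 to 68.0 RPKM and passed only between cell types at 26 months (1.05).

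Heme oxygenases and quinone reductase. Hmox2, the constitutive enzyme that opens the heme ring, had 91.0 and 89.9 RPKM in 26m OHC, 89.2 and 87.0 RPKM in 9m OHC, 31.1 and 31.2 RPKM in 26m IHC and 34.0 and 33.4 RPKM in 9m IHC. The libraries of the 2 OHC groups overlapped and lay above both IHC groups. It was higher in OHC libraries at 26 months (1.53, SE 0.02, adjusted p = 5.83e-07) and at 9 months (1.39, SE 0.03, adjusted p = 1.03e-06), with 44.8% of its windows shared with the overlapping gene Cdip1. Hmox1, the inducible enzyme, was at 0 in all OHC libraries, and averaged 0.60 ± 0.01 RPKM in 26m IHC and 0.53 ± 0.08 in 9m IHC. That is at least 6.98-fold lower in OHC than in IHC libraries at 26 months and at least 6.04-fold lower at 9 months. Nqo1, a quinone reductase and NRF2 target, had 2.51 and 2.33 RPKM in 26m OHC, 1.25 and 1.15 RPKM in 9m OHC, 0.28 and 0.19 RPKM in 26m IHC and 0.55 and 0.56 RPKM in 9m IHC. It was called at 26 months between cell types, 10.2-fold higher in OHC libraries (2.92, SE 0.14, adjusted p = 1.96e-05), on 66 to 84 reads per library in 26m OHC and 6 to 13 in 26m IHC, and lay just under the fold threshold elsewhere (0.96 to 0.99 in size). Leaving out 26m OHC replicate 2 or 9m OHC replicate 1 took its age difference in OHCs past it (1.01), leaving out 26m IHC replicate 1 did so in IHCs (-1.15), and leaving out 9m OHC replicate 2 or 9m IHC replicate 2 did so between cell types at 9 months (1.04 and 1.0), as did median ratio scaling (1.63) and quantile normalization (1.75).

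Regulators. Nfe2l2 had 8.38 and 8.51 RPKM in 26m OHC, 9.58 and 9.16 RPKM in 9m OHC, 23.3 and 22.5 RPKM in 26m IHC and 12.9 and 13.2 RPKM in 9m IHC. The IHC libraries were the high ones, and the gene was called at 26 months between cell types (-1.43, SE 0.03, adjusted p = 1.71e-06). Keap1 had 12.8 and 12.1 RPKM in 26m OHC, 6.47 and 6.07 RPKM in 9m OHC, 17.03 and 16.88 RPKM in 26m IHC and 16.0 and 15.4 RPKM in 9m IHC. It was called only at 9 months between cell types (-1.31, SE 0.04, adjusted p = 6.05e-06). Neither gene passed between ages, although Nfe2l2 did so in IHCs with median ratio scaling (1.01) and Keap1 (0.98) in OHCs without 26m OHC replicate 2 (1.02) or 9m OHC replicate 1 (1.02).

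**Figure D4:**
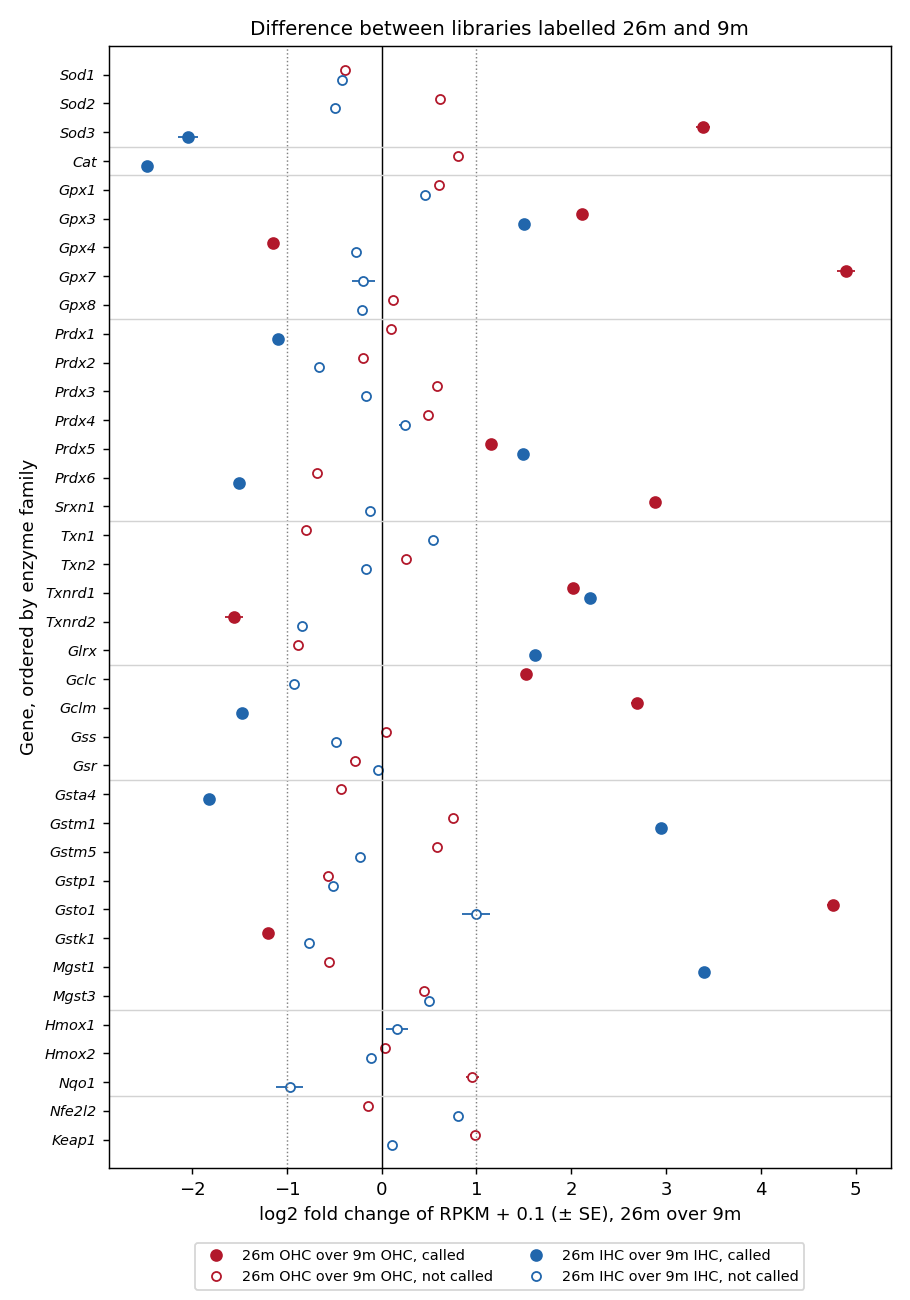
Log2 fold change of RPKM + 0.1 (± SE of the fit) of each gene at 26 months over 9 months in OHC (dark red) and IHC (blue) libraries, with filled circles for called genes and dotted lines at 1 and -1. Gpx3, Prdx5 and Txnrd1 have both circles filled on the right, and Sod3 and Gclm have filled circles on opposite sides of 0.

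Across families, 3 genes rose at 26 months in libraries of both cell types (Gpx3, Prdx5 and Txnrd1), none fell in both, and 2 had opposite calls (Sod3 and Gclm). Of the 13498 genes tested in both, 5.37% were called higher in both, 3.1% lower in both and 8.94% in opposite directions. The call of Prdx5 in OHCs is among those lost with median ratio scaling, and the calls of Sod3 were lost with a pseudocount of 1 RPKM. The 9 members that rose in 26m OHC did so in the libraries with the highest macrophage, neuronal and fibrocyte sums, whose part in this was not tested. Some genes of each of these lists were highest in other groups. Of the 38, 15 (39.5%) had an age difference that itself differed between OHC and IHC libraries by the interaction test, where 56.5% of all genes did. In 11 of them the OHC change was the more positive (38.4% of all genes) and in 4 the more negative (18.1%), a split that became 8 and 8 with median ratio scaling and 11 and 6 with quantile normalization. Between cell types, 7 genes were higher in OHC libraries at both ages (Sod1, Gpx1, Glrx, Gsta4, Gstp1, Mgst3 and Hmox2), 4 were lower at both (Txnrd1, Gclc, Gsr and Hmox1) and 5 had opposite calls (Sod3, Cat, Gpx7, Gsto1 and Mgst1). Of the 14322 genes tested at both ages, 10.6% were called higher at both, 24.2% lower at both and 9.23% in opposite directions. The calls shared by both ages were not all stable. At 9 months those of Txnrd1 and Gsr were lost under either scaling, and those of Gsta4 and Gstp1 with quantile normalization. At 26 months Gstp1 (0.995) and Mgst3 (0.999) fell below the fold threshold without 26m OHC replicate 1. Hmox1 lost both its calls with a pseudocount of 1 RPKM (-0.68 at 26 months and -0.61 at 9 months). The opposite calls were not all stable: at 9 months that of Cat was lost under either scaling and that of Gsto1 with quantile normalization (-0.24) or a pseudocount of 1 RPKM (-0.23), which also ended the 9-month call of Gpx7 (-0.77) and the 26-month call of Sod3 (0.64). Gpx8, Prdx3, Txn1 and Txn2 passed in none of the 4 comparisons, although Gpx8 and Txn1 passed in some under another scaling. The comparisons share groups, so these counts are not independent of each other.

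By compartment, the 20 cytosolic genes summed to 3282 and 3203 RPKM in 26m OHC, 4204 and 4118 in 9m OHC, 1048 and 1036 in 26m IHC and 1343 and 1328 in 9m IHC. The 6 mitochondrial genes had higher sums at 26 months in libraries of both cell types, with 357 and 353 RPKM in 26m OHC, 243 and 237 in 9m OHC, 327 and 326 in 26m IHC and 225 and 219 in 9m IHC. Without Prdx5 the sums were 197 and 197 RPKM in 26m OHC, 171 and 166 in 9m OHC, 120.4 and 119.9 in 26m IHC and 149 and 147 in 9m IHC, so that in IHC libraries the remaining 5 genes together were lower at 26 months. Prdx5 alone of the 6 was called higher with age, in both cell types, while Txnrd2 and Gstk1 fell in OHC libraries. The 7 genes of the endoplasmic reticulum summed to 369 and 368, 342 and 339, 297 and 303, and 139 and 141 RPKM in the same order of groups. The 2 secreted enzymes reached 63.4 and 60.5 RPKM in 26m OHC, 14.5 and 13.6 in 9m OHC, 23.9 and 24.0 in 26m IHC and 9.87 and 9.49 in 9m IHC, nearly all of it Gpx3. No test was made on these sums.

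**Figure D5:**
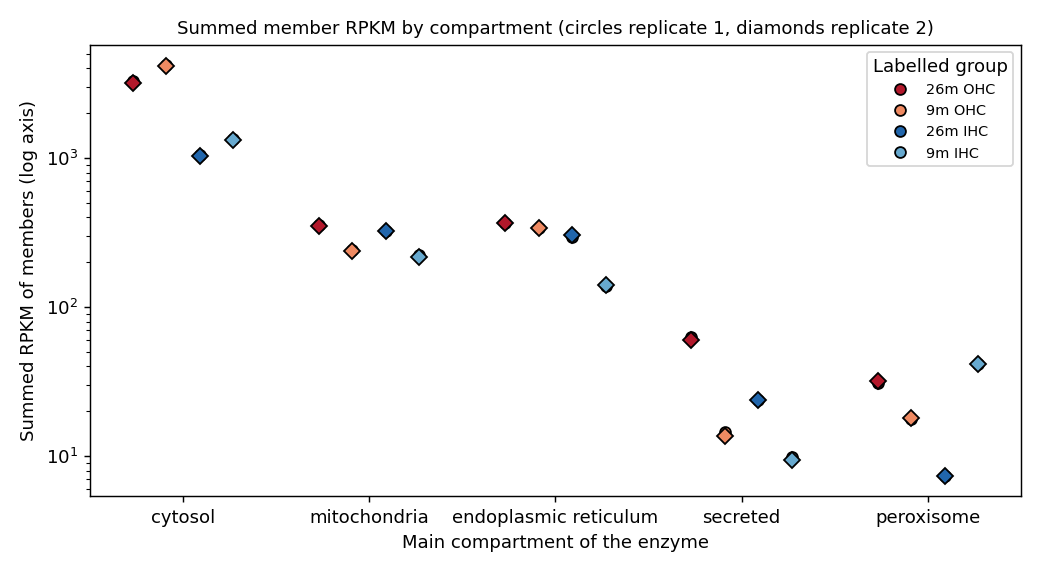
Summed RPKM (log axis) of the members by main compartment of their enzyme in the 4 labelled groups, with circles for replicate 1 and diamonds for replicate 2. The cytosolic sum is higher in OHC than in IHC libraries, the mitochondrial sum is higher at 26 than at 9 months (in IHC libraries through Prdx5 alone, the other 5 genes summing lower at 26 months), and the peroxisomal point is Cat alone.

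A further 104 genes of neighbouring pathways, in 8 lists, were counted in the same way, with calls given for 26m OHC over 9m OHC, 26m IHC over 9m IHC, 26m OHC over 26m IHC and 9m OHC over 9m IHC in that order. The shares of all genes called higher and lower were 35.6% and 14%, 14.1% and 18.6%, 29% and 34.4%, and 17.3% and 48.5% in that order, and nothing particular to a list is read from its counts. Other transferases and peroxidases (19 genes) had 7 higher and 5 lower of 15 tested, 2 and 3 of 15, 9 and 3 of 15, and 5 and 5 of 16. The most abundant was Gpx2, a peroxidase best known from the gut, which averaged 1209 RPKM in 26m OHC, 2916 in 9m OHC, 1856 in 26m IHC and 2226 in 9m IHC, above every member in each group except Sod1 in 26m OHC. Mgst2 was listed at 0 in 26m OHC, against 6.28 RPKM in 26m IHC, and Gstm7 at 0 in 9m OHC, against 4.30 RPKM in 26m OHC. Gstm6 averaged 0.01 RPKM in 26m OHC and 5.52 RPKM in 26m IHC. Genes of glutathione turnover and cystine supply (15) had 3 and 1 of 12, 0 and 3 of 13, 6 and 2 of 13, and 4 and 5 of 14. Glo1, which clears methylglyoxal, was the most abundant (188 RPKM in 26m OHC, 54.2 in 26m IHC). Ggt7 averaged 11.3 RPKM in 26m OHC and 0 in 9m OHC, Chac1, which degrades glutathione, 0 in 26m OHC and 6.47 in 9m OHC, and Anpep 0.02 in 26m IHC and 9.68 in 9m IHC.

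Genes supplying NADPH (12), the fuel of both reductases, had 5 higher and 2 lower of 12, 0 and 4, 1 and 3, and 0 and 8 (48.5% of all genes being lower in the last). Me1, malic enzyme, averaged 31.2 RPKM in 26m OHC, 30.1 in 9m OHC, 72.04 in 26m IHC and 181 in 9m IHC, and was lower in OHC libraries at both ages (-1.20 and -2.58). Pgls, of the pentose phosphate pathway, was lower in 26m OHC than in 26m IHC (-2.50), and Me3 fell in 26m IHC against 9m IHC (-2.38). Glutaredoxin- and thioredoxin-related genes (19) had 4 and 2 of 19, 1 and 0, 2 and 9, and 2 and 11. Txndc15 led with 251 RPKM in 26m IHC, against 41.9 RPKM in 26m OHC. Glrx5, which serves iron-sulfur cluster assembly in mitochondria, averaged 18.1 RPKM in 26m OHC, 9.23 in 9m OHC, 107 in 26m IHC and 97.7 in 9m IHC, the reverse order of Glrx by cell type. Txndc5 was lower in 9m OHC than in 9m IHC (-3.45), and Txnrd3 averaged 0.02 RPKM in 26m OHC and 3.49 RPKM in 26m IHC.

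NADPH oxidases and dual oxidases (14), which make superoxide and hydrogen peroxide, had 5 higher and 1 lower of 9, 4 and 3 of 9, 5 and 1 of 8, and 0 and 3 of 7. Cyba, a subunit of the phagocyte oxidase, averaged 111 RPKM in 26m OHC, 3.62 in 9m OHC, 14.8 in 26m IHC and 2.22 in 9m IHC. Its partners Cybb (7.68, 0, 0.64 and 0.06 RPKM) and Ncf4 (6.65, 0.01, 0.41 and 0.04 RPKM) had the same order of groups at the top. The macrophage sum was likewise highest in 26m OHC and next in 26m IHC, and its part in these levels was not tested. Methionine sulfoxide reductases and accessories of SOD1 and DJ-1 (6) had 1 and 0 of 6, 0 and 2, 4 and 1, and 2 and 1. Park7 (DJ-1) was the most abundant and was higher in OHC libraries at 26 months (1.90) and 9 months (1.82), Msrb1 and Msra were higher in 26m OHC than in 26m IHC (3.17 and 2.66), and Msrb3 was lower (-3.50).

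Partners and repressors of NRF2 (12) had 4 and 1 of 11, 1 and 1, 2 and 6, and 2 and 6. Rbx1, part of the ligase that KEAP1 recruits, was the most abundant at 236 RPKM in 9m OHC, against 90.4 RPKM in 9m IHC. Mafg, a small MAF partner, was higher in 26m OHC than in 26m IHC (2.46), Nfe2l3 lower (-2.30), and Nfe2, an erythroid relative, averaged 0 RPKM in 26m OHC, 0.56 in 9m OHC, 1.10 in 26m IHC and 5.45 in 9m IHC. Genes of iron storage and heme breakdown (7) had 2 and 0 of 7, 1 and 1 of 7, 5 and 0 of 7, and 1 and 1 of 6. Fth1, ferritin heavy chain, averaged 4798 RPKM in 26m OHC, 3437 in 9m OHC, 724 in 26m IHC and 1825 in 9m IHC, and was higher in 26m OHC than in 26m IHC (2.73), as were Blvrb (2.11) and Tfrc (1.48).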

How the data were processed

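RNA of 16 libraries was analysed in 4 labelled groups of 4. Using CLC Genomics Workbench, the authors aligned paired reads to GRCm38 and deposited RPKM per gene; version, counting rules and strand are not given in the sources used here, so reads of overlapping or near-identical genes cannot be assigned. The authors' methods name 2 biological replicates with 2 technical repeats, which the labels do not identify.

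Mapped reads were recovered from the steps of low values and GENCODE exon lengths (whole within 0.001 read for 15699 of 20986 detected genes, 29 of the 38 members). Libraries 1 and 2, and 3 and 4, had a mean chi-square per gene of 0.983 to 1.079 over genes with 1000 reads or more (other pairs 2.695 to 3.422) and were averaged, n = 2. Limits for a count of 0 used 3 reads per library and cover counting error only.

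Differences were tested in limma 3.58.1 (R 4.3.3, trend) on log2(RPKM + 0.1), keeping genes whose mean reached 0.1 RPKM in a compared group, with Benjamini-Hochberg adjustment over all genes tested; the interaction used all 4 groups. Low genes are understated on this scale. The script was tested on simulated data. Members and lists were chosen with earlier results of these data known, and list counts were not tested. Values per replicate are given, within each family, for the most abundant member and the most changed called member of each comparison with 1 RPKM or more, and in each pathway list for the most abundant and up to 3 most changed genes. Sequence shared with other genes was counted in windows of 75 bases, 25 bases apart. Alternatives covered the pseudocount, filter, scaling, thresholds, replicates, model and each left-out replicate.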

Additional observations from a re-analysis of the deposited data

Results flagged for a closer look

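In 15 members (39.5%) the log2 fold change at 26 over 9 months differed between libraries labelled OHC and IHC by the interaction test (limma, all 4 groups, adjusted p of 2.80e-05 or less). Of all 17056 genes tested, 56.5% were called by this test, 38.4% with the OHC change more positive and 18.1% more negative. The median difference of all genes was 0.50, and -0.04 with median ratio scaling. The change in OHC libraries was the more positive, by the difference given, for Sod3 (5.43), Gpx7 (5.09), Gclm (4.17), Gsto1 (3.77), Cat (3.28), Srxn1 (3.01), Gclc (2.45), Nqo1 (1.93), Gsta4 (1.39), Prdx1 (1.2) and Sod2 (1.11). It was the more negative for Mgst1 (-3.96), Glrx (-2.50), Gstm1 (-2.20) and Txn1 (-1.34). The differences of Sod3, Gpx7 and Gsto1 rest on a group at 0 and depend on the pseudocount. With median ratio scaling the calls of Sod2 (0.50), Prdx1 (0.59) and Gsta4 (0.77) were lost, that of Sod2 also with quantile normalization (0.92), and that of Nqo1 with a pseudocount of 1 RPKM (0.97).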

How the results depend on the processing

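With no fold threshold, 35 members were called in 26m OHC over 9m OHC (12 with it), 35 in 26m IHC over 9m IHC (12), 36 in 9m OHC over 9m IHC (23) and 34 in the interaction (15). Most of all genes tested were then called too: 13697 of 14843, 13601 of 15711, 14644 of 15335 and 15422 of 17056 in the same order. No call changed direction under any alternative. Leaving out 1 replicate gave 12 to 14 calls in 26m OHC over 9m OHC, 12 to 13 in 26m IHC over 9m IHC, 24 to 26 in 26m OHC over 26m IHC, 23 to 24 in 9m OHC over 9m IHC and 15 to 15 in the interaction, the lone sample being assumed to vary like the others. Apart from the fold threshold, the calls kept under every alternative were 8 of 12, 10 of 12, 21 of 26, 12 of 23 and 11 of 15 in that order of comparisons. The percentage of all calls that were higher moved with scaling: 71.8 as tested, 58.5 under median ratios and 49.6 under quantiles for 26m OHC over 9m OHC, 26.3, 43.9 and 48.9 for 9m OHC over 9m IHC, and 68, 52.2 and 48.7 for the interaction. The median of all genes in 26m OHC over 9m OHC moved by scaling to 0.05 and -0.03, and the members to 8 higher and 6 lower and to 8 and 3. With a replicate block the counts were 12, 12, 26, 23 and 15, changing no call; same-numbered samples deviated together (correlation 0.162 to 0.343 over 7771 genes), but with 2 numbers and no label of a shared batch they were not treated as paired. Mitochondrially encoded transcripts made up 7.48% to 7.72% of reads in 26m OHC, 9.28% to 9.55% in 9m OHC, 1.94% to 2.05% in 26m IHC and 1.16% to 1.22% in 9m IHC. Depth limits Sod3, Gpx7, Hmox1, Nqo1 and Gsto1, and with 2 averaged replicates a group the error is that between these samples.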
